A study of Mus musculus with 6 samples.

Results

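The genes of 9 hepatocyte lineage transcription factors were followed in primary mouse hepatocytes: *Hnf4a*, *Foxa1*, *Foxa2*, *Foxa3*, *Cebpa*, *Cebpb*, *Onecut1*, *Nr5a2* and *Prox1*. They were chosen by name and role and not by a measured value, though with earlier results of these data known. They make up 9 of the 25184 genes of the count table and 9 of the 15105 genes with a mean normalised count above 5 that were tested. The study asked what loss of the succinate receptor SUCNR1 in hepatocytes does to liver metabolism and zonation. Stranded mRNA sequencing was done on hepatocytes of 3 *Sucnr1* fl/fl mice and of 3 Hep-*Sucnr1* KO mice, 1 library per mouse. All 6 mice carried floxed *Sucnr1* alleles in which exon 2 is flanked by loxP sites. The Hep-*Sucnr1* KO mice also carried 1 Cre transgene under the albumin promoter, while the controls carried no Cre, so that Cre and the loss of *Sucnr1* cannot be told apart. The paper gives a C57BL6J background for the Cre mice of the cross and names none for the floxed mice. Mice of this line were fed chow, and the age of the mice behind these libraries is not given in the sources used here. Cells came from the left lateral lobe, were freed of debris on a density gradient and stood overnight on collagen before lysis, so every value describes plated cells and not liver tissue. RNA of 1 library of each genotype was extracted on day 1 (*Sucnr1* fl/fl replicate 1 and Hep-*Sucnr1* KO replicate 3) and of the other 2 on day 2 (*Sucnr1* fl/fl replicates 2 and 3, Hep-*Sucnr1* KO replicates 4 and 5). Below, libraries are always listed in the order *Sucnr1* fl/fl 1, 2, 3 and Hep-*Sucnr1* KO 3, 4, 5.

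Hepatocytes keep their identity through a network of transcription factors that bind each other's genes as well as the genes of liver function. HNF4A is a nuclear receptor that drives lipoprotein, clotting factor and drug metabolism genes. FOXA1, FOXA2 and FOXA3 are forkhead pioneer factors that open chromatin at liver enhancers. C/EBPα and C/EBPβ are leucine zipper factors, the first tied to the quiescent, metabolic state and the second to acute phase, fasting and regeneration responses. ONECUT1 (HNF6) acts in liver and bile duct development and activates *Foxa2* and *Hnf4a*. NR5A2 (LRH-1) is a nuclear receptor of bile acid and cholesterol genes, and PROX1 is a homeodomain corepressor of NR5A2 and HNF4A. Culture of isolated hepatocytes is known to weaken this network.

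Promoter sequence is shown first for the 3 genes on which most of the results below turn. *Hnf4a* has 2 annotated RefSeq starts, 40298 bases apart. The downstream promoter (P1) is the one used by adult hepatocytes and the upstream one (P2) is used mainly in fetal liver and other tissues, and gene counts add up transcripts of both. *Foxa3* and *Onecut1* are the 2 genes whose levels separated the extraction days. The stretches are those of the 250 bases before each RefSeq start (GRCm38.p6) that hold no annotated exon, read 5′ to 3′ on the gene's strand, and capitals mark a match to one of 5 short motifs.
*Hnf4a* upstream start, plus strand, chr2:163506607-163506807: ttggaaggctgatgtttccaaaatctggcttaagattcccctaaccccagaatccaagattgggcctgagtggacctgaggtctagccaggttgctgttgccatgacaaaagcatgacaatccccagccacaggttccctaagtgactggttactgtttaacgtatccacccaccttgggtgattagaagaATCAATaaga
*Hnf4a* downstream start, plus strand, chr2:163546943-163547154: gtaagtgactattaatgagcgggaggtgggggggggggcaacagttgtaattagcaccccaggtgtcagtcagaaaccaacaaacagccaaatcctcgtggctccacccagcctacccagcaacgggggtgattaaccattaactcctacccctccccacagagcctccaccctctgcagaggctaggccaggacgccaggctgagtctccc
*Foxa3*, minus strand, chr7:19023540-19023789: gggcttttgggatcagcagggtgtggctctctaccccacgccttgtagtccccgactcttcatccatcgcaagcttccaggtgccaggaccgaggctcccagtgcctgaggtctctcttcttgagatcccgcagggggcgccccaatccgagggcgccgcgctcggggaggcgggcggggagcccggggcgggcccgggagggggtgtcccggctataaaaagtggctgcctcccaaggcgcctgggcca
*Onecut1*, plus strand, chr9:74861671-74861920: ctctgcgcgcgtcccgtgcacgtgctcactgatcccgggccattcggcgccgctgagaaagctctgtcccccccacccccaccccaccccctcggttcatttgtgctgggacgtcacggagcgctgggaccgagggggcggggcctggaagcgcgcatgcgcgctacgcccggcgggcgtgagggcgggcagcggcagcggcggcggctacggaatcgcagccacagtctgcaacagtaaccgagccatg
The capitals before the upstream *Hnf4a* start spell the ONECUT1 motif ATTGAT on the other strand. No motif was matched in the stretch before the downstream *Hnf4a* start or in the *Foxa3* or *Onecut1* stretch, and the last 2 were rich in G and C (68.8% and 71.6% of bases, where the median over all 32851 windows was 52.4%).

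All 9 genes had RefSeq windows, 14 in all, and these were searched on both strands over the full 250 bases for CAAAGTCCA (HNF4A), TGTTTAC (FOXA), TTGCNNAA (C/EBP), ATTGAT (ONECUT1) and CAAGGTCA (NR5A2). The letters of the FOXA motif occurred before *Foxa1*, those of the C/EBP motif in 1 window of *Nr5a2*, and those of the ONECUT1 motif in 1 window of *Foxa2* and 1 of *Hnf4a*. The HNF4A and NR5A2 motifs occurred in none of the 14. Short motifs are common, and of all 32851 windows 0.384% held the HNF4A motif, 3.17% the FOXA motif, 9.56% the C/EBP motif, 6.72% the ONECUT1 motif and 1.33% the NR5A2 motif. These matches describe the letters and are not evidence of binding.

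The libraries held 30504248 to 38770694 counts. The factors' own counts ran from 39 for *Onecut1* in its lowest library to 22843 for *Cebpb* in its highest. *Sucnr1* itself, the targeted gene, was at 6.71, 3.55 and 3.39 CPM (counts scaled to the library total with TMM factors) in *Sucnr1* fl/fl and at 2.66, 0.827 and 0.152 CPM in Hep-*Sucnr1* KO hepatocytes. All 3 control libraries lay above all 3 KO libraries (exact permutation p = 0.1, two-sided, which is the minimum for 3 against 3), with a log2 fold change of -2.23 (SE 0.54). The gene did not pass the edgeR test after adjustment (adjusted p = 0.998, unadjusted p = 0.00444). Hep-*Sucnr1* KO replicate 3 had more *Sucnr1* than the other 2, and it is the 1 KO library of day 1. The day 1 control likewise had the most of the controls. The fitted change from day 1 to day 2 was -1.64 (SE 0.53, edgeR unadjusted p = 0.0176, adjusted p = 0.548). Extraction day and the *Sucnr1* left in that mouse thus cannot be told apart. The hepatocyte markers *Alb*, *Ttr*, *Apoa1*, *Serpina1c*, *Cps1* and *Asgr1* summed to 66367 to 90044 CPM in *Sucnr1* fl/fl and 57637 to 92186 CPM in Hep-*Sucnr1* KO libraries. Kupffer cell markers, 8 of 8 detected in every library, summed to 28.5 to 104 and 5.92 to 89.0 CPM, sinusoidal endothelial markers to 33.8 to 62.2 and 25.8 to 40.3 CPM, stellate cell markers to 4.65 to 20.8 and 3.40 to 7.83 CPM, lymphatic endothelial markers to 2.97 to 8.61 and 1.93 to 3.79 CPM, and other leukocyte markers to 2.41 to 12.6 and 1.87 to 12.1 CPM. The cholangiocyte sum of 350.1 to 512 and 426 to 650.3 CPM was made almost wholly of *Spp1* and *Sox9*, which plated hepatocytes also express, while *Krt19* stayed between 0.118 and 0.890 CPM. The lymphatic sum was made almost wholly of *Flt4*, with *Pdpn* at no more than 0.0659 CPM in any library. Where these cells differ in number, fewer cells of a type and less RNA per cell cannot be told apart.

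None of the 9 factors passed the test of genotype across all genes. With edgeR's quasi-likelihood test, with extraction day in the model, 0 of 9 passed an adjusted p of 0.05 (all adjusted p = 0.998), beside 0 of the 15105 genes tested (0.0%). At an unadjusted p under 0.05 the count was 0 of 9, beside 3.73% of all genes, and DESeq2 called 0 of the 9 and 7 genes in all (0.0463%). In no factor were the 3 *Sucnr1* fl/fl libraries all above or all below the 3 Hep-*Sucnr1* KO libraries, a pattern found in 10.6% of all genes. Of the 9 estimates 3 were above 0 and 6 below, with a median log2 fold change of -0.11 where the median over all genes was 0.003. The 95% intervals set how large a difference could have been missed. The narrowest, of *Cebpb*, reached 0.34 to either side of its estimate on the log2 scale, and the widest, of *Onecut1*, 1.10.

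**Figure D1:**
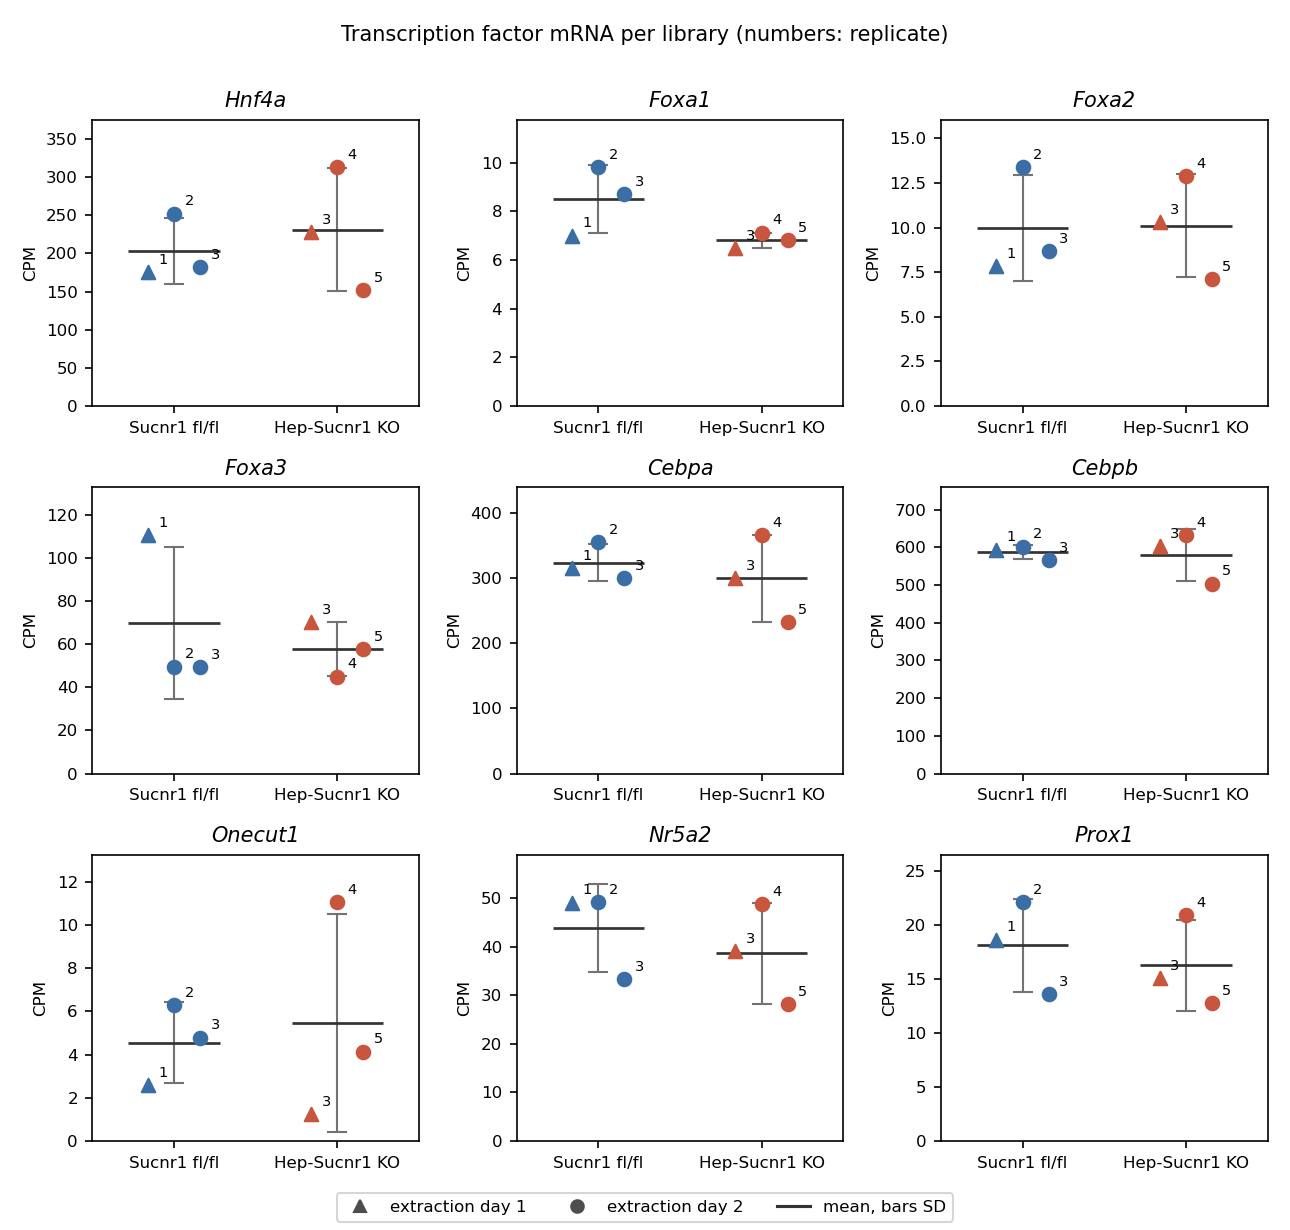
CPM of the 9 transcription factor genes (y axis, from 0, a scale per panel) in the 3 Sucnr1 fl/fl (blue) and 3 Hep-Sucnr1 KO (red) libraries. Triangles are extraction day 1 and circles day 2, numbers are replicates, lines are group means and bars SD. The genotypes overlap in all 9 panels, and Foxa3 and Onecut1 are the 2 panels in which triangles and circles do not.

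*Hnf4a* (chr2:163506808-163572910, plus strand) was at 176, 252 and 182 CPM in *Sucnr1* fl/fl and at 228, 313 and 152 CPM in Hep-*Sucnr1* KO hepatocytes. The highest and the lowest library were thus both Hep-*Sucnr1* KO, 2.06-fold apart. Group means were 203 ± 42.7 and 231 ± 80.7 CPM (SD, n = 3 each), and the fitted fold was 1.14 with a 95% interval of 0.722 to 1.81. On day 1 the KO library was higher by 0.38 on the log2 scale and on day 2 by 0.02, from 1 against 1 and 2 against 2 libraries.

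The 3 *Foxa* genes were expressed at very different levels. *Foxa1* (chr12:57540628-57546916, minus strand) was at 6.99, 9.80 and 8.70 CPM in *Sucnr1* fl/fl and at 6.49, 7.12 and 6.80 CPM in Hep-*Sucnr1* KO hepatocytes. Of the 9 factors it had the smallest p, with 2 of 3 control libraries above every KO library, and its log2 fold change of -0.31 (SE 0.15, interval -0.66 to 0.04) had an unadjusted edgeR p of 0.0728. It was also the 1 factor whose sign held under all 14 alternatives of processing and sample choice (log2 fold change -0.42 to -0.23), while the sign of the other 8 turned under at least 1. These alternatives reuse the same 6 libraries and are not independent. Over them the unadjusted p of *Foxa1* with edgeR or DESeq2 ran from 0.0571 to 0.320. *Foxa2* (chr2:148042877-148046969, minus strand), which acts in fasting metabolism, was at 7.85, 13.4 and 8.67 CPM in *Sucnr1* fl/fl and at 10.3, 12.9 and 7.10 CPM in Hep-*Sucnr1* KO hepatocytes, with means of 9.97 ± 2.98 and 10.1 ± 2.89 CPM. Its fold was 1.02 (0.647 to 1.62).

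*Foxa3* (chr7:19013284-19023538, minus strand) was at 111, 49.6 and 49.5 CPM in *Sucnr1* fl/fl and at 70.1, 45.0 and 57.7 CPM in Hep-*Sucnr1* KO hepatocytes. One library, *Sucnr1* fl/fl replicate 1, stood above all others, and the means were 70.0 ± 35.3 CPM for the controls and 57.6 ± 12.6 CPM for the KO group. The log2 fold change was -0.19 (SE 0.18) with all 6 libraries. Its sign turned without *Sucnr1* fl/fl replicate 1 (0.05), without Hep-*Sucnr1* KO replicate 3 (0.04) and with the day 2 libraries alone (0.04). With day in the model, all 3 of these fits compare the genotypes within day 2, so they are near repeats of each other. The nearest gene start, that of *Sympk* on the opposite strand, lay 839 bases away, and *Sympk* stayed between 55.3 and 63.3 CPM in all 6 libraries.

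Per length, *Foxa3* made up most of the *Foxa* mRNA. Its share of the summed *Foxa* RPKM (CPM per kilobase of exon) was 90.9, 73.9 and 79.5% in *Sucnr1* fl/fl and 84.5, 74.5 and 84.9% in Hep-*Sucnr1* KO hepatocytes (two-sided exact permutation test p = 1). *Foxa2* gave 5.54, 17.1 and 12.0% and 10.7, 18.3 and 8.98% (exact permutation p = 0.9). *Foxa1* gave 3.52, 8.94 and 8.55% and 4.79, 7.21 and 6.12% (exact permutation p = 0.6). The order of the 3 genes was thus the same in 6 of 6 libraries, and the shares varied more within a genotype than between the means of the genotypes.

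*Cebpa* (chr7:35119293-35121928, plus strand) was at 315, 355 and 299 CPM in *Sucnr1* fl/fl and at 300.0, 366 and 232 CPM in Hep-*Sucnr1* KO hepatocytes. The KO libraries again enclosed the controls. The means were 323 ± 28.4 and 299 ± 67.0 CPM and the fold 0.927 (0.677 to 1.27). *Cebpb* (chr2:167688915-167690418, plus strand), a gene without introns like *Cebpa*, was the most abundant of the 9 and the least variable, at 594, 602 and 567 CPM and 603, 633 and 503 CPM. Its coefficient of variation over the 6 libraries was 7.65% and its fold 0.987 (0.781 to 1.25), the narrowest interval of the set. The RPKM ratio of *Cebpb* to *Cebpa*, a common readout of the balance between the acute and the metabolic C/EBP factor, was 3.30, 2.97 and 3.32 in *Sucnr1* fl/fl and 3.52, 3.03 and 3.80 in Hep-*Sucnr1* KO hepatocytes. The log2 ratio was 0.11 higher in the KO group, with overlapping libraries (two-sided exact permutation test p = 0.4).

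**Figure D2:**
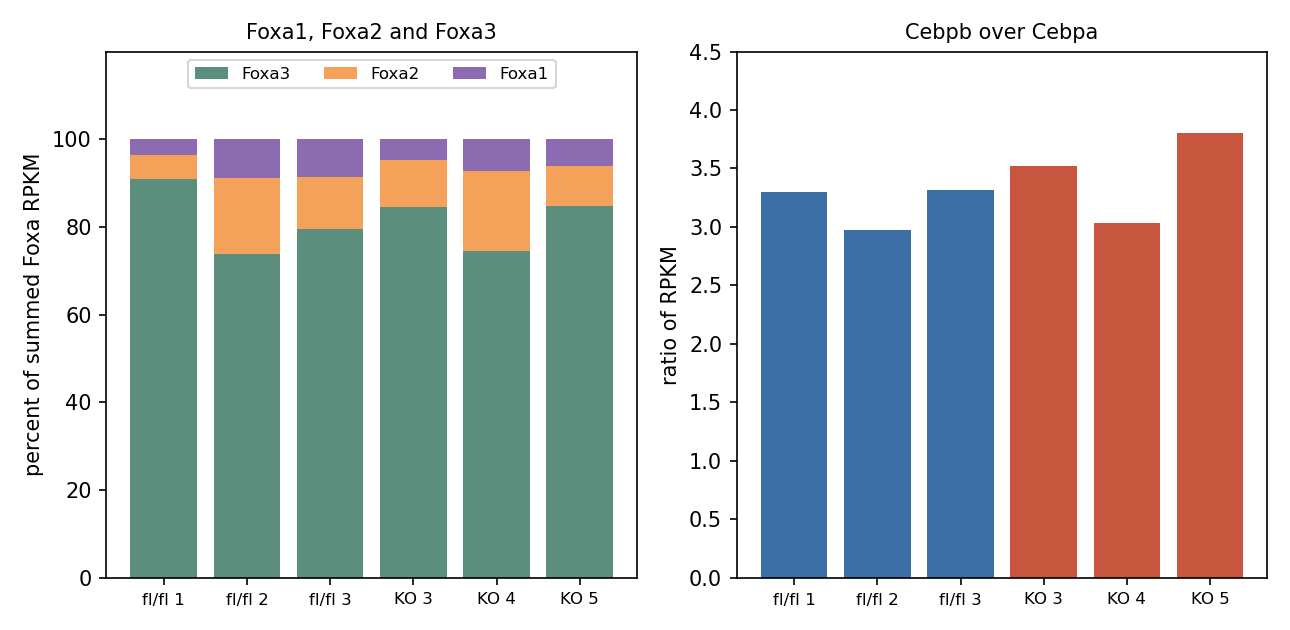
Left, stacked bars give the percent of the summed Foxa RPKM contributed by Foxa3, Foxa2 and Foxa1 in each library (y axis in percent), with Foxa3 between 73.9 and 90.9%. Right, bars give the RPKM ratio of Cebpb to Cebpa per library, from 0, between 2.97 and 3.80, with Sucnr1 fl/fl in blue and Hep-Sucnr1 KO in red.

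*Onecut1* (chr9:74861921-74891781, plus strand) was the least abundant and most variable factor, at 2.57, 6.28 and 4.78 CPM in *Sucnr1* fl/fl and at 1.23, 11.04 and 4.13 CPM in Hep-*Sucnr1* KO hepatocytes. The extremes were both KO libraries and lay 8.95-fold apart. The means were 4.55 ± 1.87 and 5.47 ± 5.04 CPM, and the fold of 1.01 had the widest interval of the 9, from 0.471 to 2.17. *Nr5a2* (chr1:136842571-136960448, minus strand) was at 49.0, 49.1 and 33.4 CPM and at 39.1, 48.8 and 28.1 CPM, with a fold of 0.884 (0.599 to 1.31). Its corepressor *Prox1* (chr1:190118035-190170714, minus strand) was at 18.7, 22.1 and 13.6 CPM and at 15.1, 21.0 and 12.8 CPM, with a fold of 0.896 (0.598 to 1.34). In both genes *Sucnr1* fl/fl replicate 3 and Hep-*Sucnr1* KO replicate 5, each from day 2, were the lowest libraries.

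**Figure D3:**
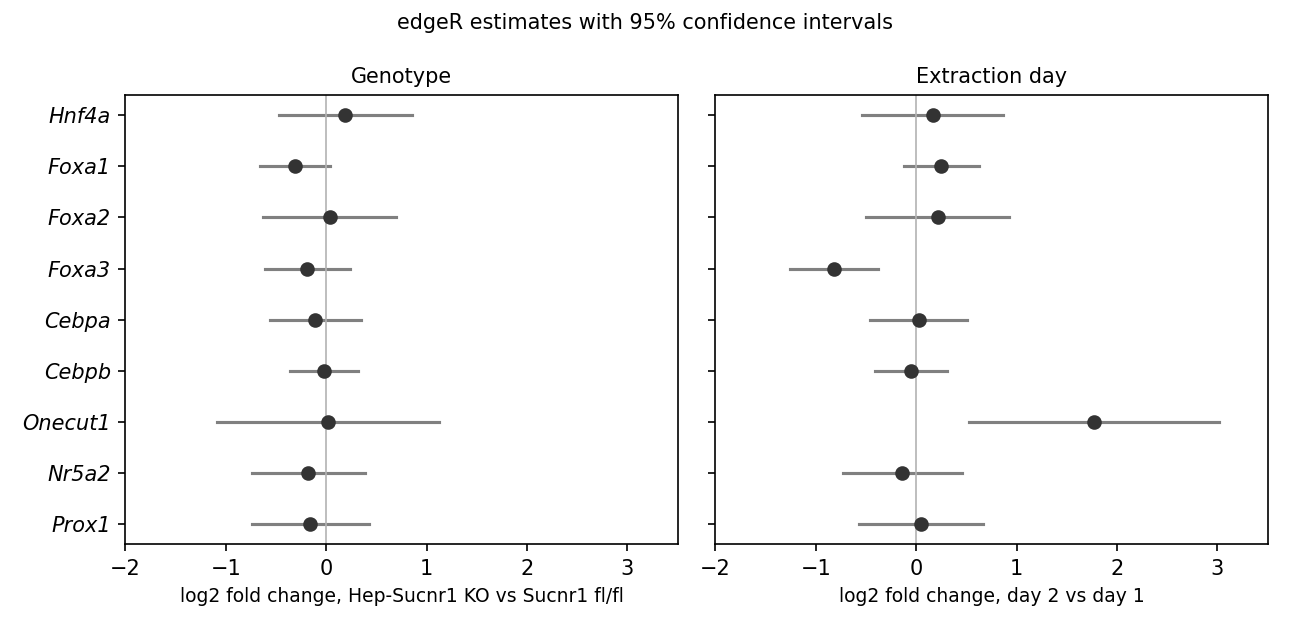
edgeR log2 fold changes (x axis) with 95% confidence intervals for the 9 factors, left for Hep-Sucnr1 KO against Sucnr1 fl/fl and right for extraction day 2 against day 1. All 9 genotype intervals include 0, and the day intervals of Foxa3 (-1.26 to -0.38) and Onecut1 (0.52 to 3.01) do not.

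*Foxa3* and *Onecut1* differed between the extraction days by more than between the genotypes, in opposite directions. *Foxa3* averaged 90.4 CPM in the 2 day 1 libraries and 50.4 CPM in the 4 day 2 libraries, a fitted log2 change of -0.82 (SE 0.18) from day 1 to day 2. *Onecut1* averaged 1.90 and 6.56 CPM, a log2 change of 1.77 (SE 0.52), or 3.41-fold, with only 99 and 39 counts in the 2 day 1 libraries. In both genes the 2 days did not overlap, which made 2 of 9 factors where 14.8% of all genes showed such a separation. Both had an unadjusted edgeR p under 0.05 (0.0032 and 0.0122, 2 of 9 beside 7.49% of all genes), and neither passed adjustment (adjusted p = 0.469 and 0.537, with 0.0% of all genes called). DESeq2 gave adjusted p values of 0.0217 and 0.0292 and so called both, among 225 genes (1.49%). Without *Sucnr1* fl/fl replicate 1 the *Foxa3* change shrank to -0.45 (unadjusted p = 0.067 with edgeR), and without Hep-*Sucnr1* KO replicate 3 that of *Onecut1* to 1.07 (unadjusted p = 0.139 with edgeR).

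The other 7 factors had day changes between -0.14 and 0.25 on the log2 scale, with unadjusted edgeR p values of 0.154 to 0.909. Day 1 had 1 mouse per genotype, so day, mouse and preparation cannot be told apart there. The summed Kupffer cell markers were at 33.2 and 5.92 CPM in the day 1 libraries and at 28.5 to 104 CPM in those of day 2, and Hep-*Sucnr1* KO replicate 3, which had the least *Onecut1*, also had the smallest Kupffer sum. *Sucnr1* fl/fl replicate 1, which had the most *Foxa3*, had the highest sums of sinusoidal endothelial (62.2 CPM, others at most 40.3), stellate (20.8 CPM, others at most 7.83) and lymphatic endothelial markers (8.61 CPM, others at most 3.82). In that library *Flt4* alone gave 8.55 CPM of the lymphatic sum, with *Pdpn* at 0.0520 CPM. *Dcn* (10.4 CPM) and *Reln* (9.36 CPM) made up most of its stellate sum, with *Lrat* at 0.416 CPM. The part of the cells behind these markers in the day result was not tested. The genotype effect was also compared between the days by an interaction term, which gave 0 of 9 factors at an unadjusted p under 0.05, beside 3.69% of all genes. *Foxa3* came closest, with -0.66 between the day 1 libraries, 0.04 between the day 2 means and an interaction of 0.71 on the log2 scale (SE 0.29, unadjusted p = 0.0509 and adjusted p = 1 with edgeR).

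Mice of the same genotype and day also differed in most factors. *Hnf4a*, *Foxa2*, *Cebpa*, *Nr5a2*, *Prox1* and *Onecut1* were over 1.5 times higher in Hep-*Sucnr1* KO replicate 4 than in replicate 5, by 2.06, 1.81, 1.58, 1.74, 1.64 and 2.68-fold, although both libraries have the same genotype and day. These 6 of 9 stand beside 11.1% of all genes with such a difference, and 0 of 9 were over 1.5 times higher in replicate 5, beside 11.9% of all genes. *Cebpb* differed 1.26-fold, *Foxa1* 1.05-fold, and *Foxa3* was lower in replicate 4 (0.780 of replicate 5). The 2 day 2 control mice showed a like order with smaller gaps, with all 9 factors higher in *Sucnr1* fl/fl replicate 2 than in replicate 3 (1.00 to 1.63-fold), where 46.7% of all genes were. In 8 of 9 factors both orders held, beside 27.5% of all genes. This pair of comparisons was picked after the values were seen and carries no test.

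**Figure D4:**
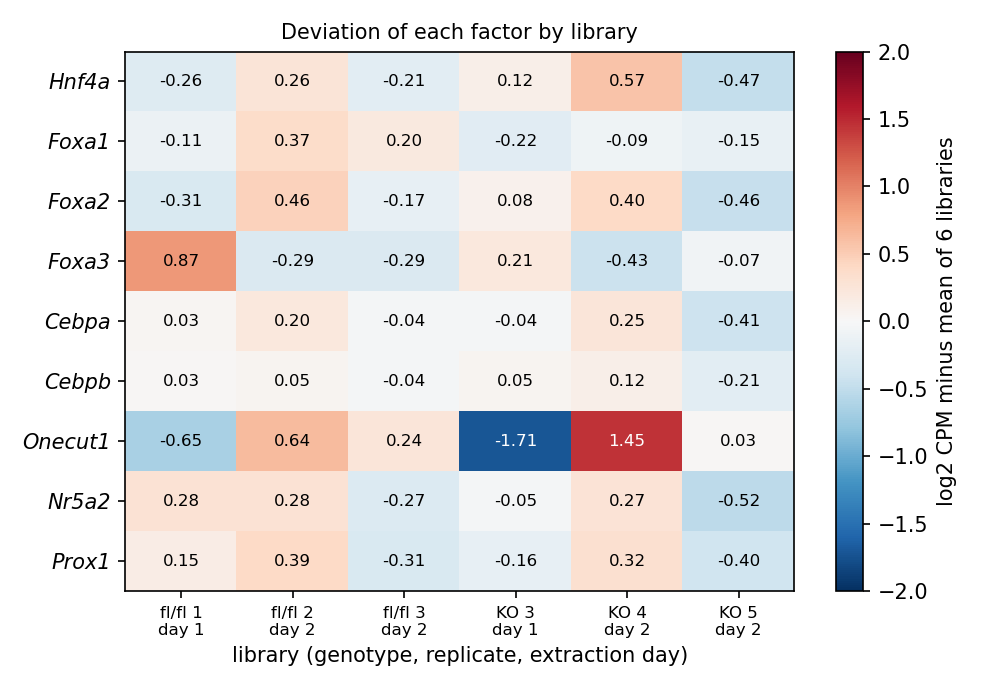
Heat map of the log2 CPM of each factor (rows) in each library (columns, labelled by genotype, replicate and extraction day) minus the mean of the 6 libraries, with the value in each cell, red for above and blue for below the mean. The columns of fl/fl 2 and KO 4 are mostly red and the column of KO 5 is mostly blue, and Onecut1 spans -1.71 in KO 3 to 1.45 in KO 4.

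Other readouts shifted between the same libraries. *Cyp2e1*, a pericentral cytochrome P450, was at 1168, 2077 and 1429 CPM in *Sucnr1* fl/fl and at 1383, 3429 and 684 CPM in Hep-*Sucnr1* KO hepatocytes, 5.01-fold apart between KO replicates 4 and 5. *Alb*, the albumin gene, went the other way with 59747, 47329 and 66694 CPM and 46946, 37106 and 68901 CPM. The 20 most abundant genes together took 25.4, 23.9 and 26.8% of the counts in *Sucnr1* fl/fl and 23.9, 23.3 and 26.9% in Hep-*Sucnr1* KO libraries, highest in the 2 libraries in which *Nr5a2* and *Prox1* were lowest. Of 21 other liver-enriched transcription factors 8 were over 1.5 times higher in KO replicate 4 than in 5 and 0 the reverse, among them the nuclear receptors *Nr1i3* (4.29-fold) and *Ppara* (2.01-fold) and the pericentral factor *Tbx3* (4.003-fold). Of 15 genes that rise as hepatocytes dedifferentiate in culture 0 were higher in replicate 4 by that margin and 7 higher in replicate 5. Examples were *Tmsb10* (2.53-fold) and *Krt8* (1.59-fold). Over all genes these shares were 11.1% and 11.9%. In the same order, lists described below gave 1 and 1 of 12 HNF4A targets and 1 and 1 of 8 FOXA targets. They also gave 2 and 1 of 11 C/EBP targets and 3 and 1 of 13 identity genes. The NR5A2 and PROX1 targets gave 3 and 0 of 7, and the ONECUT1 targets, which include *Hnf4a* and *Foxa2*, 4 and 0 of 6. Coregulators gave 0 and 1 of 12, immediate early genes 1 and 1 of 10 and acute phase genes 3 and 0 of 16. Some genes are in more than 1 of these lists. The part of any of these in the spread of the factors was not tested. Over the 6 libraries the median coefficient of variation of the 9 factors was 22.9%, beside 12.1% for the 8625 tested genes within their range of mean CPM.

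Levels between genes were compared per length, as RPKM averaged over the 6 libraries. *Cebpb* was highest at 388 ± 29.7 RPKM (SD, n = 6), above 99.1% of the 15095 tested genes with a length. It was followed by *Cebpa* (118 ± 18.1), *Hnf4a* (45.0 ± 12.4), *Foxa3* (31.3 ± 12.1), *Nr5a2* (6.99 ± 1.55), *Foxa2* (4.23 ± 1.11), *Foxa1* (2.30 ± 0.393), *Prox1* (2.05 ± 0.469) and *Onecut1* (1.22 ± 0.835 RPKM, above 39.4% of genes), which spans a 319-fold range. The order was set from the same 6 libraries in which its pairs were then tested, so the p values are no independent check of it. Of the 8 neighbouring pairs in this order 5 held in 6 of 6 libraries, each with a two-sided exact sign-flip permutation p of 0.0312, the smallest that 6 libraries can give, and an adjusted p of 0.05 over the 8 pairs, which is at and not below the threshold. These were *Cebpb* over *Cebpa* (3.31-fold), *Cebpa* over *Hnf4a* (2.68-fold), *Foxa3* over *Nr5a2* (4.35-fold), *Nr5a2* over *Foxa2* (1.66-fold) and *Foxa2* over *Foxa1* (1.81-fold). *Hnf4a* and *Foxa3* did not differ beyond their spread (1.47-fold, 5 of 6 libraries, exact permutation p = 0.125), nor did *Foxa1* and *Prox1* (1.13-fold, 4 of 6, p = 0.281) or *Prox1* and *Onecut1* (2.04-fold, 5 of 6, p = 0.0625).

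For each factor the protein-coding gene with the most similar profile was sought among 6819 or 6820 tested genes with a mean of at least 10 CPM, by the root mean square distance of the log2 CPM deviations over the 6 libraries. The nearest were *Entpd5* to *Hnf4a* (distance 0.10), *Slc20a2* to *Foxa1* (0.05), *Usp10* to *Foxa2* (0.07), *Chdh* to *Foxa3* (0.11), *Xpnpep3* to *Cebpa* (0.05), *Trip4* to *Cebpb* (0.03), *Ddi2* to *Nr5a2* (0.03) and *Prdm2* to *Prox1* (0.05). *Chdh*, a choline dehydrogenase, was at 179, 85.8 and 99.1 CPM in *Sucnr1* fl/fl and at 112, 78.5 and 95.9 CPM in Hep-*Sucnr1* KO hepatocytes, with the same high *Sucnr1* fl/fl replicate 1 as *Foxa3*. No gene came close to *Onecut1*, whose nearest, *Irgm2*, was at a distance of 0.47. A short distance over 6 libraries describes these samples and is no sign of a shared function.

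**Figure D5:**
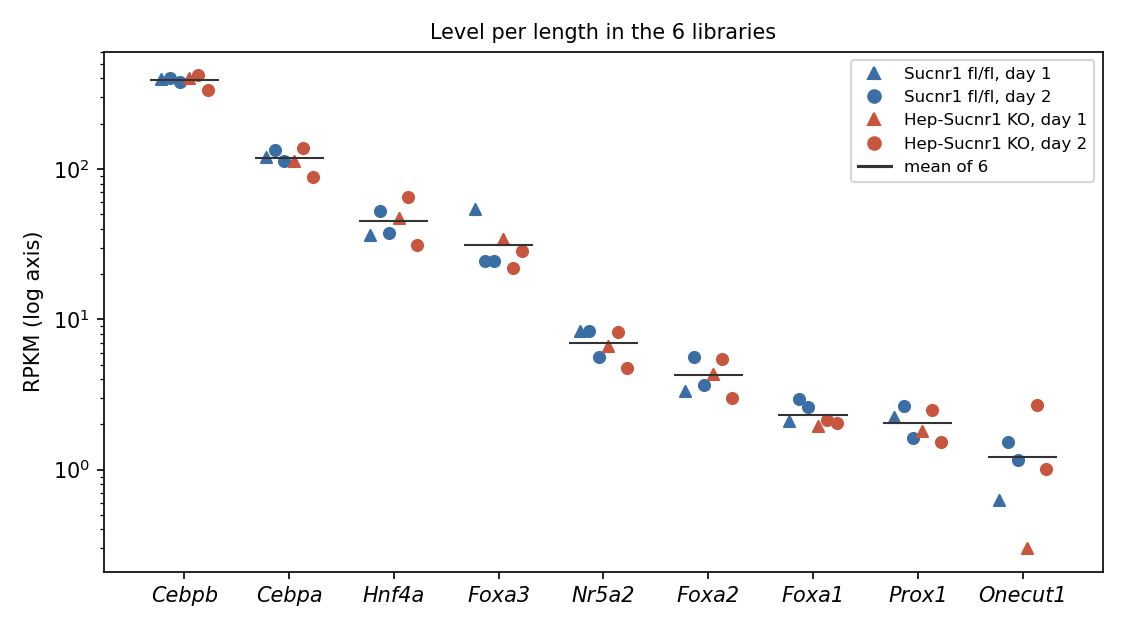
RPKM (log axis) of each factor in the 6 libraries, ordered by the mean (line), with Sucnr1 fl/fl in blue, Hep-Sucnr1 KO in red, triangles for extraction day 1 and circles for day 2. The 4 leading genes lie above 20 RPKM in all libraries, and the points of Foxa1, Prox1 and Onecut1 overlap.

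Genes that overlap a factor or start within 5 kb of its start were read beside it. The annotation lists 9, of which 8 were in the count table and 6 were tested, and none passed an adjusted p of 0.05. *Hnf4aos*, antisense to *Hnf4a*, was at 0.832 to 1.71 CPM with its highest value in Hep-*Sucnr1* KO replicate 4, as for *Hnf4a*. *Prox1os*, antisense to *Prox1*, was at 1.85, 2.26 and 1.68 CPM in *Sucnr1* fl/fl and at 2.69, 3.01 and 2.00 CPM in Hep-*Sucnr1* KO hepatocytes, with a log2 fold change of 0.41 (SE 0.26, adjusted p = 0.998 with edgeR). Counting used strand, so these antisense reads did not enter the factors' own counts. *Gm45091*, antisense to *Cebpa*, stayed under 0.5 CPM.

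The wider network of liver factors also held no gene called by genotype. Among the 21 other liver-enriched factors 0 passed adjustment, 4 estimates were above 0 and 17 below, and the median log2 fold change was -0.08. *Onecut2*, the paralog of *Onecut1*, was at 55.7, 39.6 and 47.6 CPM in *Sucnr1* fl/fl and at 48.3, 33.7 and 30.6 CPM in Hep-*Sucnr1* KO hepatocytes (log2 fold change -0.36, SE 0.12, unadjusted p = 0.0215 and adjusted p = 0.998 with edgeR). Its genotypes overlapped, and its change from day 1 to day 2 was larger and opposite in sign to that of *Onecut1* (-0.47, SE 0.13, unadjusted p = 0.00785 and adjusted p = 0.508 with edgeR). *Creb3l3*, a fasting-responsive factor of lipid genes, was the other member under an unadjusted 0.05 for genotype (-0.29, SE 0.11), making 2 of 21 beside 3.73% of all genes. *Cebpd* had the smallest p among those above 0 (0.33, SE 0.18). Of 12 coregulators of the factors 1 estimate was above 0 (*Hdac3*, 0.18) and 11 below, with a median of -0.24, and 0 passed adjustment. *Ppargc1a*, the coactivator of HNF4A in gluconeogenesis, was at 4.08, 2.74 and 2.90 CPM and at 2.09, 1.56 and 2.52 CPM, without overlap (-0.63, SE 0.26, unadjusted p = 0.0445 and adjusted p = 0.998 with edgeR).

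Target genes were read from 5 lists, named for what each factor is known to regulate. The lists were chosen with earlier results of these data known, so their counts carry no test. The 12 HNF4A targets had 6 estimates above 0 and 6 below, none at an unadjusted p under 0.05 and a median log2 fold change of -0.04. *F9*, coagulation factor IX, had the smallest p of those above 0 (0.13). The 8 FOXA targets had 3 above and 5 below, none under 0.05 and a median of -0.06. *Igfbp1*, an insulin-like growth factor binding protein, had the smallest p of those above 0 (0.18). Of the 6 ONECUT1 targets, which include *Foxa2* and *Hnf4a*, 3 were above 0 and 3 below, none under 0.05, with a median of -0.05. *Slc2a2*, the hepatocyte glucose transporter, had the smallest p of these (-0.36, SE 0.20, adjusted p = 0.998 with edgeR).

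The 11 C/EBP targets had 5 estimates above 0 and 6 below, with a median of -0.02, and 5 were under an unadjusted 0.05, beside 3.73% of all genes. The 4 of these that were above 0, *Hp*, *Orm1*, *Saa1* and *Saa2*, are acute phase genes, and the 1 below, *Gys2*, is the liver glycogen synthase. *Saa2* was at 1229.5, 1019 and 1355 CPM in *Sucnr1* fl/fl and at 2439.7, 1801 and 1761 CPM in Hep-*Sucnr1* KO hepatocytes, without overlap (log2 fold change 0.72, SE 0.18, unadjusted p = 0.00519 and adjusted p = 0.998 with edgeR). *Gys2* was at 102, 80.3 and 95.6 CPM and at 61.2, 62.2 and 78.8 CPM (-0.46, SE 0.15, adjusted p = 0.998 with edgeR). *Saa1* and *Saa2* are near-identical copies whose reads the counting may have split unevenly. The 7 NR5A2 and PROX1 targets had 2 above and 5 below with a median of -0.14. *Abcg5* and *Abcg8*, which form the sterol exporter of the canalicular membrane, were the 2 of 7 under an unadjusted 0.05, beside 3.73% of all genes (-0.31 and -0.36, SE 0.11 and 0.15), and *Cyp8b1*, the sterol hydroxylase of cholic acid synthesis, was at 39.0, 55.1 and 35.3 CPM and at 64.2, 67.6 and 32.4 CPM. No gene of the 5 lists passed adjustment with edgeR (adjusted p = 0.998 at the lowest), and DESeq2 called none of them either.

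No marker of the differentiated state was called either. Of 14 hepatocyte identity genes 13 were matched in the table, with 7 estimates above 0, 6 below, 0 under an unadjusted 0.05 and a median of 0.01. *Fgb* (0.19) and *Tdo2* (-0.30, SE 0.14) had the smallest p in each direction. The 15 genes of dedifferentiation in culture had 8 above and 7 below, 0 under an unadjusted 0.05 and a median of 0.06, and *Spp1* (0.21) and *Krt8* (-0.27) had the smallest p in each direction.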

How the data were processed

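RNA of plated primary hepatocytes, 3 mice per genotype, was profiled by stranded, paired-end mRNA sequencing. The authors trimmed reads (Trim Galore 0.6.7), aligned them to GRCm38 (STAR 2.7.10a), counted read pairs per Ensembl gene by strand with featureCounts, and deposited raw counts in 1 table of 25184 genes with at least 1 count. How read pairs matching several genes were counted is not given in the sources used here, so near-identical copies are uncertain. Groups came from the labels and extraction days from the study's methods and labels.

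Counts were scaled with TMM factors and tested with edgeR 4.0.16 (R 4.3.3), by its quasi-likelihood test with genotype and extraction day as terms. The 15105 genes with a mean DESeq2-normalised count above 5 entered, with Benjamini-Hochberg adjustment over all of them and a threshold of 0.05. The authors used DESeq2 with extraction date as covariate, and DESeq2 1.42.0 was run as an alternative. A log2 fold change above 0 means a higher level in the KO group. Single values, ratios and shares were set against exact permutations of the libraries (two-sided). Lengths, coordinates and neighbours came from GENCODE M21 (GRCm38), promoter windows from RefSeq (GRCm38.p6), both matched by gene identifier or symbol, and tables were made with Python 3.11.15 and pandas 2.3.3. On simulated counts for the genotype comparison (14918 genes) the fit called 66 of 100 genes changed by 1 on the log2 scale, 98 of 100 changed by 2 and 7 of 14718 unchanged ones. These rates describe the simulated counts. In the measured libraries 0 of 15105 genes passed, and *Sucnr1* itself did not at a log2 fold change of -2.23 (edgeR adjusted p = 0.998). The factors also varied more between libraries than genes within their range of mean CPM (median coefficient of variation 22.9% against 12.1%). The simulated rates may thus be too high for the factors.

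The 9 genes, the 11 gene lists, the marker lists and the motifs were chosen with earlier results of these data known. Genes were named by a rule: the 9 factors, *Sucnr1*, the gene with the smallest unadjusted p in each direction of each list, and the nearest profile of each factor. Some genes of the lists and 1 motif fixed with them are not reported here. *Cyp2e1*, *Alb*, *Creb3l3*, *Abcg8*, *Nr1i3*, *Ppara*, *Tbx3*, *Tmsb10* and the acute phase genes *Hp*, *Orm1* and *Saa1* were named after their values were seen. So were the markers *Flt4*, *Pdpn*, *Dcn*, *Reln* and *Lrat*. Alternatives were DESeq2, other size factors and filters, other covariates (the series of library indexes), day 2 alone and leaving out each library. The p values measure the spread between these 6 libraries, each taken as 1 mouse.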

Additional observations from a re-analysis of the deposited data

How the results depend on the processing

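Over 14 alternatives for genotype and 12 for extraction day, 0 of the 9 factors passed an adjusted p of 0.05 for genotype under any (the lowest adjusted p was 0.897). With unadjusted p under 0.05, the count of factors by genotype was 0 to 1 when a library was left out: *Onecut1* without Hep-*Sucnr1* KO replicate 4 (unadjusted p = 0.0473 and adjusted p = 0.999 with edgeR) and *Hnf4a* without replicate 5 (0.0414 and 0.897). For extraction day the count past adjustment was 2 with DESeq2 (*Foxa3* and *Onecut1*) and 1 with edgeR and no filter (*Foxa3*), and the count at an unadjusted p under 0.05 was 1 to 2 when a library was left out, 1 when either of the 2 libraries of day 1 was left out.

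None of the genotype estimates was past the threshold, and their signs turned in 27 of 126 recomputed values. Leaving out either library of day 1 gives nearly the same comparison as day 2 alone, so these values are not all separate. With library size alone the log2 fold change was -0.006186 for *Foxa2* and -0.02422 for *Onecut1*. That of *Onecut1* was -0.03606 with DESeq2, -0.002756 with RLE size factors and -0.002559 with no filter. With day 2 alone it was -0.1554 for *Foxa2* and 0.0415 for *Foxa3*. Library indexes came from 1 series in *Sucnr1* fl/fl replicates 1 and 2 and from another in the other 4 libraries, so index and genotype are partly confounded. With the index series as a term it was 0.02415 for *Cebpa*, 0.01912 for *Cebpb*, 0.2084 for *Nr5a2* and 0.3218 for *Prox1*. Leaving out 1 library at a time gave -0.1249 to 0.4636 for *Hnf4a*, -0.1811 to 0.2952 for *Foxa2*, -0.3608 to 0.05098 for *Foxa3*, -0.3111 to 0.06308 for *Cebpa*, -0.1125 to 0.07584 for *Cebpb*, -0.6699 to 0.4549 for *Onecut1*, -0.4561 to 0.001165 for *Nr5a2* and -0.4076 to 0.03834 for *Prox1*. The cause was not tested.

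Medians of lists moved by more than the spread between libraries in these cases. With the index series as a term the median was -0.01652 for the coregulators, 0.1537 for the C/EBP targets, -0.3143 for dedifferentiation and 0.2415 for the acute phase list, and with day 2 alone it was -0.2248 for the immediate early genes. Leaving out 1 library at a time gave -0.3444 to 0.02701 for the other liver factors, -0.3163 to -0.09866 for the coregulators, -0.08963 to 0.05056 for the HNF4A targets, -0.1042 to 0.1564 for the C/EBP targets, -0.3389 to -0.05647 for the NR5A2 and PROX1 targets and -0.2248 to -0.1091 for the immediate early genes. Replicate numbers do not mark pairs, since number 3 is from day 2 in *Sucnr1* fl/fl and from day 1 in Hep-*Sucnr1* KO. No paired analysis was made, and extraction day was a term of the model. With 3 mice per genotype, changes of 1 on the log2 scale could be missed, and *Sucnr1* at -2.23 did not pass the edgeR test after adjustment. *Onecut1* had the lowest counts and also the largest coefficient of variation of the 9 factors (68.6%). The part of low counts in its wide interval was not tested.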

Other observations

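The acute phase list, genes that C/EBPβ and STAT3 drive in inflamed liver, lay higher in Hep-*Sucnr1* KO hepatocytes without a call in the edgeR test. Of its 16 genes 15 had a log2 fold change above 0 and 1 below, 7 were under an unadjusted p of 0.05, all of them above 0, beside 3.73% of all genes, and 0 passed adjustment with edgeR. *Hp*, *Orm1*, *Saa1* and *Saa2* are 4 of these 7 and are counted among the C/EBP targets too, and *Saa1* and *Saa2* are near-identical copies. The list was chosen with earlier results of these data known, so its counts describe these libraries and carry no test. The median was 0.37, where that of all genes was 0.003, and it stayed between 0.24 and 0.42 over 15 settings. *Lbp*, the lipopolysaccharide binding protein, was at 87.3, 93.9 and 116 CPM in *Sucnr1* fl/fl and at 137, 162 and 173 CPM in Hep-*Sucnr1* KO libraries, a log2 fold change of 0.67 (SE 0.12, edgeR unadjusted p = 0.00106, adjusted p = 0.998). DESeq2 gave it an adjusted p of 0.0184. *Stat3* was the gene below 0 (-0.16). *Cebpb*, whose product acts on this list, averaged 587 ± 18.3 CPM in the control and 579.9 ± 67.8 CPM in the KO libraries (SD, n = 3 each).

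The immediate early genes, which respond to isolation stress, had 1 of 10 estimates above 0 (*Ier3*, 0.13) and 9 below, with a median of -0.14 and 0 under an unadjusted p of 0.05 with edgeR. *Fos* was at 67.4, 56.5 and 60.3 CPM and at 49.4, 42.5 and 59.3 CPM, with overlapping groups.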
